A study of Arabidopsis thaliana with 3 samples.

Results

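The SIN3-like genes of Arabidopsis, SNL1 to SNL6, are 6 of the 26017 loci annotated on the arrays of this study. They were picked by locus code: AT3G01320 (SNL1), AT5G15020 (SNL2), AT1G24190 (SNL3), AT1G70060 (SNL4), AT1G59890 (SNL5) and AT1G10450 (SNL6). The family was taken up because SNL3 and SNL4 were lower in AhNF-YC-OE under water stress, so their values on that array are given as a description. SNL1 is on chromosome 3 and SNL2 on chromosome 5, and the other 4 genes are on chromosome 1. Each gene is represented by 1 spot.

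The study compared rosette leaves of transgenic AhNF-YC-OE plants, labelled with Cy5, with those of wildtype plants, labelled with Cy3. Both were of the Col-0 ecotype and 5 weeks old. Each of the 3 two-colour arrays holds 1 condition: plants grown normally, plants after 5 days of water stress, and recovering plants, stressed for 8 days and sampled 24 h after watering resumed. The labels say neither which promoter drives the transgene, nor how many lines or plants were pooled, and no array has the dyes exchanged. With 1 array per condition no difference has a replicate check, no test was possible and none is given. A dye bias of a spot enters each ratio, and in whole leaves fewer cells of a type cannot be told apart from less RNA per cell.

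SIN3 proteins are scaffolds that bind no DNA themselves. Their paired amphipathic helices dock onto DNA-binding repressors, and a separate region holds histone deacetylases, whose removal of acetyl groups from histones lowers transcription. In Arabidopsis, SNL3, also called AtSIN3, works with the repressor ERF7 and the deacetylase HDA19 in dampening responses to abscisic acid, the hormone of drought. SNL1 and SNL2 act with HDA19 in seed dormancy. NF-YC proteins are subunits of NF-Y, a factor that binds CCAAT boxes in promoters.

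Spots of the same transcript differed widely. Across 1464 transcripts printed as a pair of spots, the levels of the pair correlated at 0.0541 under normal growth, at 0.0601 on the water stress array and at 0.0766 on the recovery array. Their genotype ratios, the log2 of AhNF-YC-OE over wild type, correlated at 0.0535, 0.0831 and 0.164. These are correlations across spots of 1 slide, which share dye, slide and hybridisation. The 18 spots of 10 photosynthesis genes that a leaf transcribes strongly had median percentiles between 51.3 and 57.5 among gene spots in each channel, where strongly transcribed genes would lie near the top. No SIN3-like gene has a second spot to set beside the first. The names below are therefore those of the array annotation. Median spot intensity in AhNF-YC-OE was 3042, 812 and 962 under normal growth, water stress and recovery, against 4208, 1422 and 1399 in wild type.

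**Figure D1:**
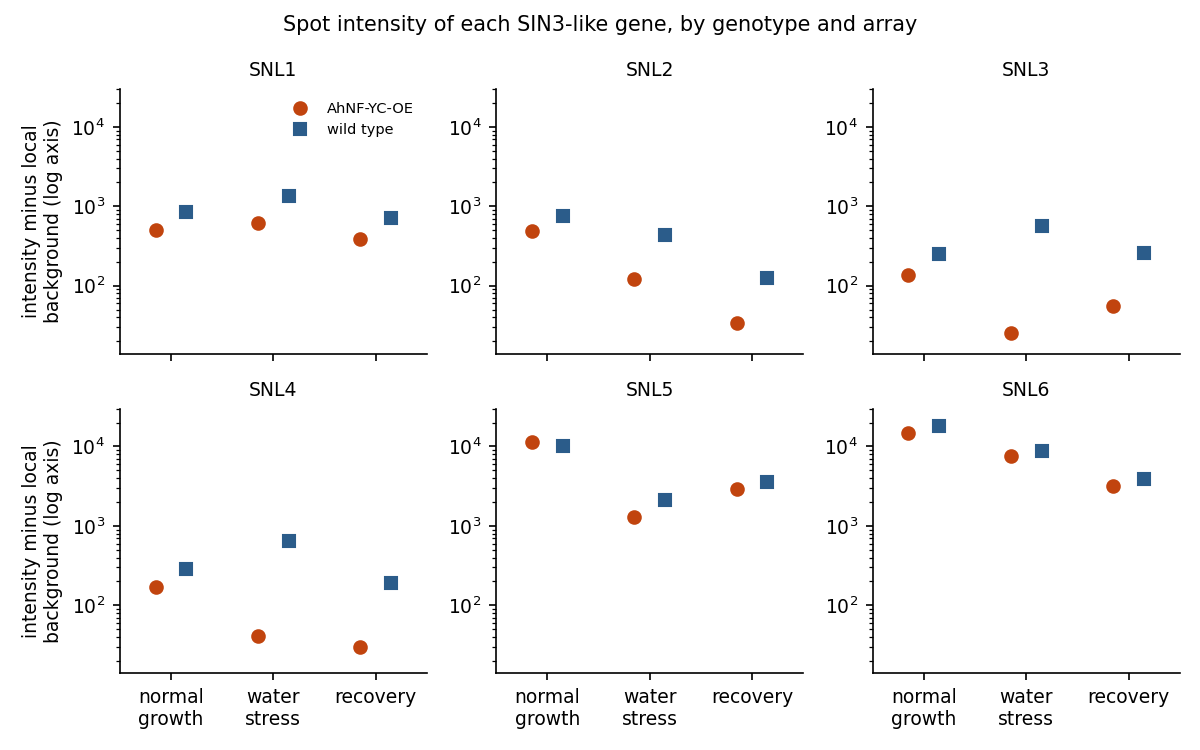
Intensity minus local background (log axis, arbitrary scanner units) of the spot of each SIN3-like gene, with AhNF-YC-OE (circles) left of wild type (squares) on each of the 3 arrays. SNL3 and SNL4 are farthest apart under water stress, at 25.3 in AhNF-YC-OE against 557 in wild type for SNL3, and 41.5 in AhNF-YC-OE against 639 in wild type for SNL4.

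SNL3, the partner of ERF7, had a spot intensity above background of 136 in AhNF-YC-OE and 253 in wild type under normal growth. Under water stress it had 25.3 in AhNF-YC-OE and 557 in wild type, and in recovery 55.6 in AhNF-YC-OE and 258 in wild type. Before scaling, the wild-type channel was thus at its highest under water stress, where the AhNF-YC-OE channel was at its lowest. Division by channel medians, which differ between arrays, made AhNF-YC-OE higher by 0.47 (log2) under water stress than under normal growth. After normalization, which evens out the dyes over the range of brightness, the genotype ratio was −0.16 under normal growth, −1.21 on the water stress array and −0.48 in recovery. On the linear scale AhNF-YC-OE stood at 89.5%, 43.1% and 71.6% of wild type.

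SNL4, a SIN3-like gene of the same chromosome, gave similar genotype ratios from a spot in another block of the slide. Its intensities were 169 in AhNF-YC-OE and 287 in wild type under normal growth, and 41.5 in AhNF-YC-OE and 639 in wild type under water stress. In recovery they were 30.0 in AhNF-YC-OE and 193 in wild type. Its genotype ratios, in the same array order, were −0.08, −1.23 and −0.48, or 94.8%, 42.7% and 71.9% of wild type. As with SNL3, the wild-type channel was highest under water stress, and the ratio was closest to 0 under normal growth. Unlike that of SNL3, the AhNF-YC-OE channel of SNL4 was lowest in recovery. Both genes were below 0 on all 3 arrays.

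Under water stress SNL4 had the 15th and SNL3 the 18th lowest ratio of 26012 genes above background. With print-tip loess SNL4 ranked 53 and SNL3 154 from the lowest, and in the authors' deposited table SNL4 ranked 129 and SNL3 157. On that array 0.334% of genes were lower in AhNF-YC-OE by 2-fold or more (0.834% in either direction), and 2 of the 6 SIN3-like genes were. Since those values chose the family, nothing is read from that share. The next SIN3-like gene above the threshold, SNL1, was at −0.22. In recovery SNL3 had 2.81% of 26006 genes below it and SNL4 2.89%. These shares parted in other settings, at 5.41% for SNL3 and 1.12% for SNL4 with print-tip loess, and at 4.68% for SNL3 and 1.01% for SNL4 in the authors' deposited table. No member was 2-fold apart there, where 0.385% of genes were lower and 0.0538% higher (0.438% in all). None was under normal growth, where 0.00769% were lower and 0.0923% higher (0.100% in all).

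**Figure D2:**
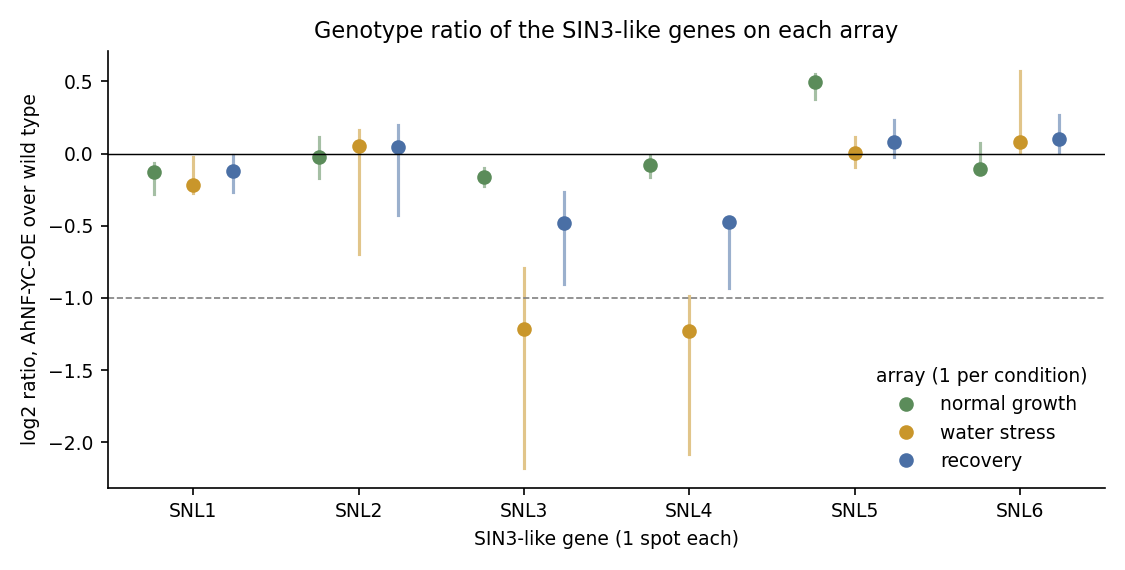
Genotype ratio (log2, AhNF-YC-OE over wild type) of the 6 SIN3-like genes on the 3 arrays (points), with lines spanning 7 other ways of processing and a dashed line at 2-fold lower. SNL3 and SNL4 stand at −1.21 and −1.23 under water stress and near −0.48 in recovery, and in each of the 7 settings they are below 0 on every array.

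The sign for SNL3 and SNL4 was the same on all 3 arrays in each of 7 other processings, and the size was not. Under water stress SNL3 ranged from −2.18 with median centring to −0.79 with loess within print-tip blocks. SNL4 ranged from −2.09 with median centring to −0.99 with print-tip loess. In the authors' deposited table SNL3 stood at −1.11 and SNL4 at −1.17 under water stress, and SNL3 at −0.34 and SNL4 at −0.81 in recovery. Over the 7 settings the recovery value ran from −0.90 to −0.26 for SNL3, and from −0.93 to −0.48 for SNL4. Counts over all genes moved with the scaling: on the water stress array loess gave 130 genes higher and 87 lower by 2-fold, and median centring 1838 higher and 3582 lower, the last being 13.8% of genes. The share of such genes that were higher was 59.9% with loess, and between 33.9% with median centring and 66.7% with print-tip loess otherwise. In recovery it was 12.3%, with 21.3% to 33.3% in the other settings, and under normal growth 92.3%, with 56.0% to 99.5%.

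Both spots were dim in AhNF-YC-OE. Under water stress that channel read 80.9 over a local background of 55.6 for SNL3, and 93.8 over 52.3 for SNL4. The SD of the local background was 1.41 at the SNL3 spot and 2.25 at the SNL4 spot, so both lay above background in both channels. That is a weak limit, since 92.5% of spots annotated as empty also counted as above background on that array. Of 510 spots annotated as empty, 87.6% had less signal than SNL3 in the AhNF-YC-OE channel and 96.1% in the wild-type channel. For SNL4 the shares were 90.2% in AhNF-YC-OE and 96.1% in wild type. The median genotype ratio of the empty spots was 1.76, in the direction opposite to SNL3 and SNL4. Under normal growth SNL5 and SNL6 alone of the family were brighter than 95% of empty spots in a channel, and in recovery SNL2 and SNL4 were not. Background correction with a smaller offset, 10 in place of 50, gave −1.55 for SNL3 and −1.49 for SNL4, and plain subtraction gave −1.70 and −1.59.

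**Figure D3:**
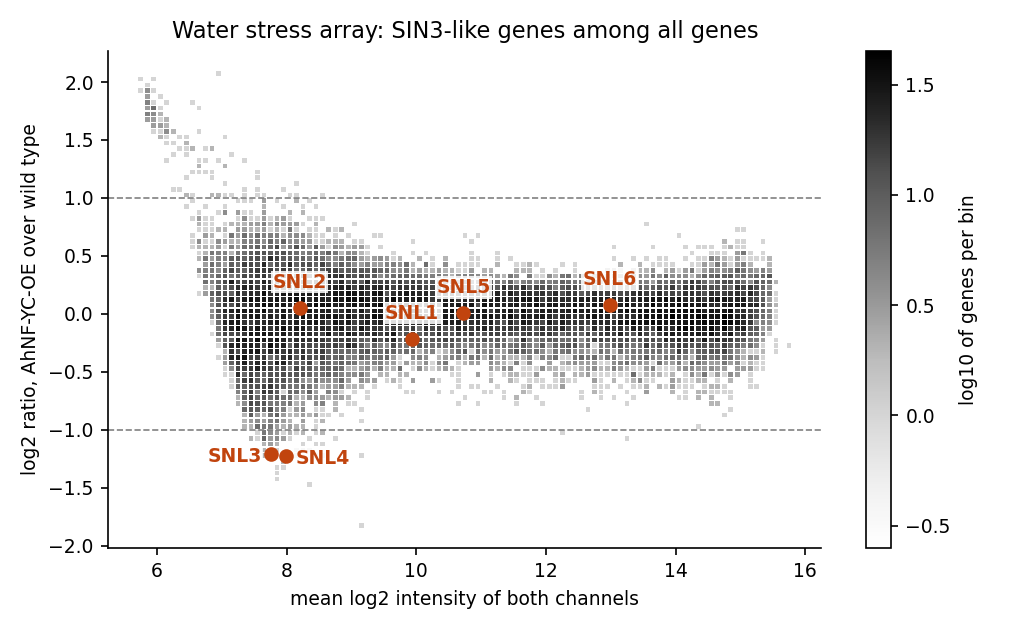
Genotype ratio (log2, AhNF-YC-OE over wild type) against the mean log2 intensity of both channels on the water stress array, for 26012 genes (grey, darker where more genes share a bin) and the 6 SIN3-like genes (orange), with dashed lines at 2-fold. SNL3 and SNL4 lie at the dim end, below the lower line, and SNL1, SNL2, SNL5 and SNL6 lie within the main cloud.

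The place on the slide moved with the ratio. SNL3 lies in row 3 and SNL4 in row 6 of their blocks, which have 25 rows each. Of the 87 genes at least 2-fold lower under water stress, 66 were on chromosome 1, which holds 25.8% of loci, and in recovery it was 74 of 100. Among spots as bright as SNL3 (within 0.25 on the log2 scale), the 746 within 2 rows of its row had a median log2 ratio of −0.34 under water stress, and the 2529 elsewhere 0.01. By 2-fold or more, 5.63% were lower near that row and 0.870% elsewhere. For SNL4 the median was −0.12 over 637 spots near its row and −0.01 over 2370 others, with 2.51% and 1.22% lower. Set against the median near their row, SNL3 stood at −0.87 and SNL4 at −1.10. Against the 41 or 48 spots around them in the block, SNL3 stood at −0.996, just short of 2-fold, and SNL4 at −1.11. The alternatives by row were chosen after seeing the data, and the part of slide position in these ratios was not tested further.

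SNL5 was the SIN3-like gene with the highest ratio under normal growth. Its spot read 11384 above background in AhNF-YC-OE and 10023 in wild type there, 1286 in AhNF-YC-OE and 2093 in wild type under water stress, and 2899 in AhNF-YC-OE and 3609 in wild type in recovery. The log2 ratio was 0.49 under normal growth, or 1.41-fold higher in AhNF-YC-OE, with 97.9% of 26009 genes below it. It was 0.01 under water stress and 0.08 in recovery. The normal growth value kept its sign in all 7 other processings, between 0.38 and 0.55, whereas both others were negative in 3 of the 7. SNL5 lies in row 5 of its block. Of the 265 spots as bright as SNL5 within 2 rows of it, 0 were 2-fold lower under water stress. Of the 1029 such spots in other rows it was 0 too, so at this brightness the count cannot set rows apart. Under normal growth the 306 spots as bright as SNL5 near its row had a median log2 ratio of −0.08, and the 1241 elsewhere −0.01. Set against the median near its row, SNL5 stood at 0.58 there.

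SNL6 was within 2-fold between genotypes on each array. Its intensities were 14994 in AhNF-YC-OE and 18355 in wild type under normal growth, 7489 in AhNF-YC-OE and 8740 in wild type under water stress, and 3222 in AhNF-YC-OE and 3916 in wild type in recovery. The log2 ratios were −0.11, 0.08 and 0.10. Median centring turned the first to 0.08.

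SNL1 and SNL2, the pair known from seed dormancy, showed ratios close to 0. SNL1 read 510 in AhNF-YC-OE and 849 in wild type under normal growth, 623 in AhNF-YC-OE and 1365 in wild type under water stress, and 382 in AhNF-YC-OE and 715 in wild type in recovery. Its log2 ratios were −0.13, −0.22 and −0.12, all below 0 in each of the 7 other processings. SNL2 read 492 in AhNF-YC-OE and 758 in wild type under normal growth, 123 in AhNF-YC-OE and 441 in wild type under water stress, and 33.6 in AhNF-YC-OE and 125 in wild type in recovery. Both channels were lowest in recovery. Its log2 ratios were −0.02, 0.05 and 0.05. Median centring gave −0.69 under water stress and −0.42 in recovery for SNL2, and the authors' deposited table gave 0.14 under water stress and 0.20 in recovery.

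The difference of the genotype ratio between arrays asks whether a genotype difference goes with water supply. A dye bias that stays constant cancels in it, and water supply and array differ together. Water stress minus normal growth was −1.05 for SNL3 and −1.15 for SNL4, and these contain the values that chose the family. In this difference 0.350% of genes were lower and 0.450% higher by 2-fold or more. For SNL5 it was −0.49, with a range from −0.49 to −0.39 in the other processings, and for SNL1, SNL2 and SNL6 it was −0.09, 0.07 and 0.19. Recovery minus normal growth was −0.32 for SNL3, −0.40 for SNL4 and −0.41 for SNL5, with no member past 2-fold, against 0.304% of genes lower and 0.0269% higher. Recovery minus water stress was 0.73 for SNL3 and 0.75 for SNL4, and between −0.0037 and 0.09 for the others. No member passed 2-fold, against 0.0192% of genes higher and 0.119% lower. These differences share arrays with each other, so they are not separate observations.

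Within each genotype the arrays were compared by single-channel log2 intensity, scaled so that mean intensities of the arrays have 1 distribution. SNL1 was higher under water stress than under normal growth in both genotypes, at 1.79 in AhNF-YC-OE and 1.88 in wild type. By 2-fold or more, 12.8% of genes were higher in AhNF-YC-OE and 15.4% in wild type. Other scalings gave from 1.76 to 2.12 in AhNF-YC-OE and from 1.89 to 2.21 in wild type. Before scaling, the SNL1 intensity above background rose only 1.22-fold in AhNF-YC-OE and 1.61-fold in wild type. Under normal growth that spot was not brighter than 95% of empty spots in either channel. In recovery against water stress SNL1 was lower, at −0.87 in AhNF-YC-OE and −0.97 in wild type.

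SNL3 and SNL4 had single-channel values that differed between genotypes. Under water stress over normal growth SNL3 stood at −0.16 in AhNF-YC-OE and at 0.90 in wild type. SNL4 stood at −0.01 in AhNF-YC-OE and at 1.14 in wild type. With each channel divided by its median, SNL3 stood at 0.47 in AhNF-YC-OE and 2.52 in wild type, and SNL4 at 0.53 in AhNF-YC-OE and 2.55 in wild type. The wild-type channel was higher under water stress in each of the 4 scalings, while the sign in AhNF-YC-OE turned with the scaling. In recovery against water stress, SNL4 was at −0.44 in AhNF-YC-OE and −1.19 in wild type, and SNL3 at 0.27 in AhNF-YC-OE and −0.46 in wild type.

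**Figure D4:**
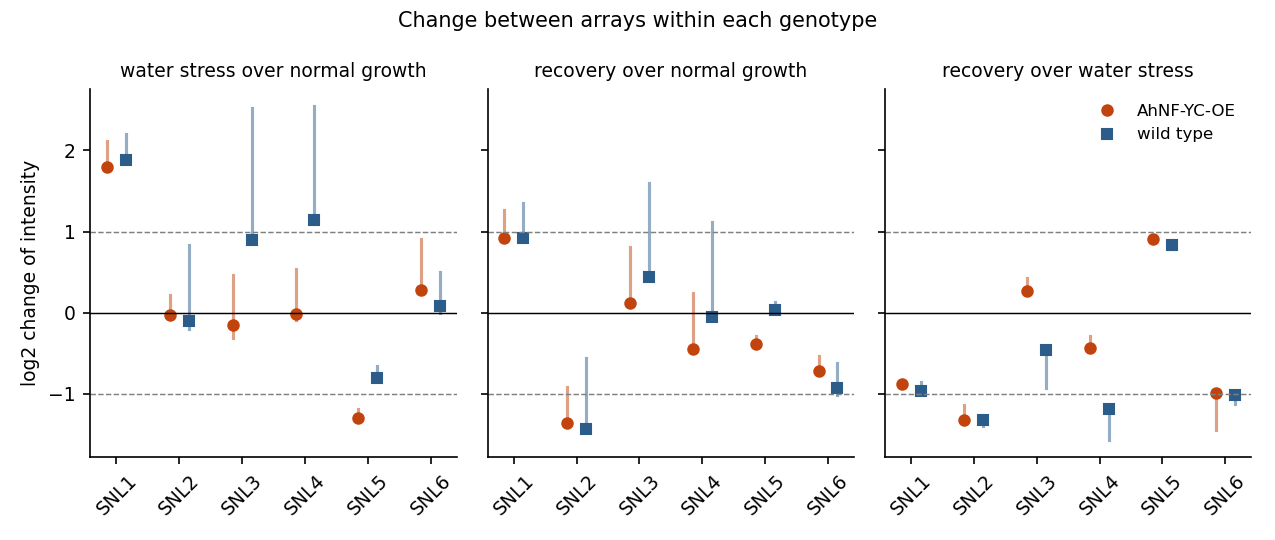
Log2 change of scaled single-channel intensity between arrays for each SIN3-like gene, with AhNF-YC-OE (circles) left of wild type (squares), lines spanning 3 other scalings and dashed lines at 2-fold. SNL1 is above 1.7 in both genotypes for water stress over normal growth, and SNL2 is below −1.3 in both for recovery over water stress.

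SNL2 was lower in recovery than under water stress, at −1.33 in AhNF-YC-OE and −1.32 in wild type, and it stood lower than under normal growth too, at −1.36 in AhNF-YC-OE and −1.43 in wild type. For recovery over water stress, 3.64% of genes in AhNF-YC-OE and 3.99% in wild type were lower by 2-fold, and 3.07% in AhNF-YC-OE and 3.91% in wild type higher. For recovery over normal growth, 14.3% of genes in AhNF-YC-OE and 15.8% in wild type were lower, and 14.4% in AhNF-YC-OE and 16.6% in wild type higher. There, division by channel medians moved SNL2 to −0.92 in AhNF-YC-OE and −0.56 in wild type. SNL6 was lower in recovery than under water stress, at −0.99 in AhNF-YC-OE and −1.02 in wild type. SNL5 went the other way there, at 0.91 in AhNF-YC-OE and 0.84 in wild type. Under water stress against normal growth SNL5 was at −1.30 in AhNF-YC-OE and −0.81 in wild type, where 13.0% of genes in AhNF-YC-OE and 15.0% in wild type were lower by 2-fold. No direction over the 3 conditions was common to the 6 genes.

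To be read beside the SIN3-like genes, 40 loci in 5 groups were listed, all of them measured on each array. They are called partner genes here, though not all encode proteins that work with SIN3 scaffolds. The TOPLESS group is a rival corepressor family, and the HD2-type deacetylases form a group of their own. At least 2-fold apart between genotypes were 0 of the 40 under normal growth, 1 higher and 1 lower under water stress, and 2 lower in recovery. Over all genes 0.100% were apart under normal growth, 0.500% higher and 0.334% lower under water stress, and 0.385% lower in recovery. The median log2 ratio of the 40 was 0.01 under normal growth, 0.02 on the water stress array and −0.03 in recovery, against −0.01, 0.00 and 0.00 over all genes.

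The 12 deacetylases of the RPD3/HDA1 type, the family that includes HDA19, had no member 2-fold apart. HDA19, the deacetylase known to bind SNL3, had log2 ratios of 0.02, 0.00 and −0.08 under normal growth, water stress and recovery. HDA6, a deacetylase of gene silencing, stood at 0.20, 0.07 and 0.21, and HDA9, which acts in flowering and leaf ageing, at 0.11, 0.33 and −0.02. Median centring gave HDA19 1.06 under water stress, where its channels read 31299 in AhNF-YC-OE and 26093 in wild type, and turned HDA9 to −0.35. The 4 plant-specific HD2-type deacetylases lay between −0.39 and 0.22 on all arrays.

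Of the 11 further loci listed with the complex, 1 was lower under water stress, against 0.334% of all genes, and 2 in recovery, against 0.385%. AT1G19330, a locus that the annotation used here does not name, stood at −0.07, −1.45 and −1.39 on the 3 arrays. Its spot read 70.2 in AhNF-YC-OE against 859 in wild type under water stress, and 118 in AhNF-YC-OE against 753 in wild type in recovery. With print-tip loess it stood at −1.29 and −1.21 on these arrays. ING2, a reader of methylated histone H3, stood at −0.28, −0.72 and −1.04, with 20.9 in AhNF-YC-OE against 275 in wild type in recovery. Both loci are on chromosome 1, like SNL3 and SNL4, and chromosome goes with place on the slide. The SIN3-associated SAP18 stood at −0.29, 0.11 and 0.03, HDC1, a scaffold of deacetylase complexes, at −0.09, 0.10 and −0.33, and the histone-binding MSI1 at −0.07, −0.10 and −0.06.

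The 8 ERF repressors, DNA-binding factors with an EAR motif, had a median of −0.25 under water stress, where 6 of the 8 were below 0 and none was 2-fold lower. Over all genes on that array, 12902 of 26012 were below 0, with a median of 0.00. Of the 8 repressors, 4 were below 0 under normal growth and 3 in recovery. ERF4 stood at −0.23, −0.88 and −0.31 in the order of the arrays, and ERF7 at −0.11, −0.60 and −0.19. Under water stress both were also below 0 with print-tip loess, with median centring and in the authors' deposited table. Their spots were dim in AhNF-YC-OE under water stress, at 38.5 against 505 in wild type for ERF4 and 44.4 in AhNF-YC-OE against 444 in wild type for ERF7. In the TOPLESS family, the other large corepressor family of plants, TPL stood at 0.00, −0.08 and −0.11. With loess TPR4 was the only listed gene 2-fold higher, at 1.05 under water stress, and it stood at 0.29 with median centring and at −0.15 in the authors' deposited table. Its value is the mean of a pair of spots at 1.91 and 0.19, the first of which had a wild-type signal of 5.74 above background. A spot of its other transcript, left out because it was dimmer over the arrays, stood at −0.30 under water stress.

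**Figure D5:**
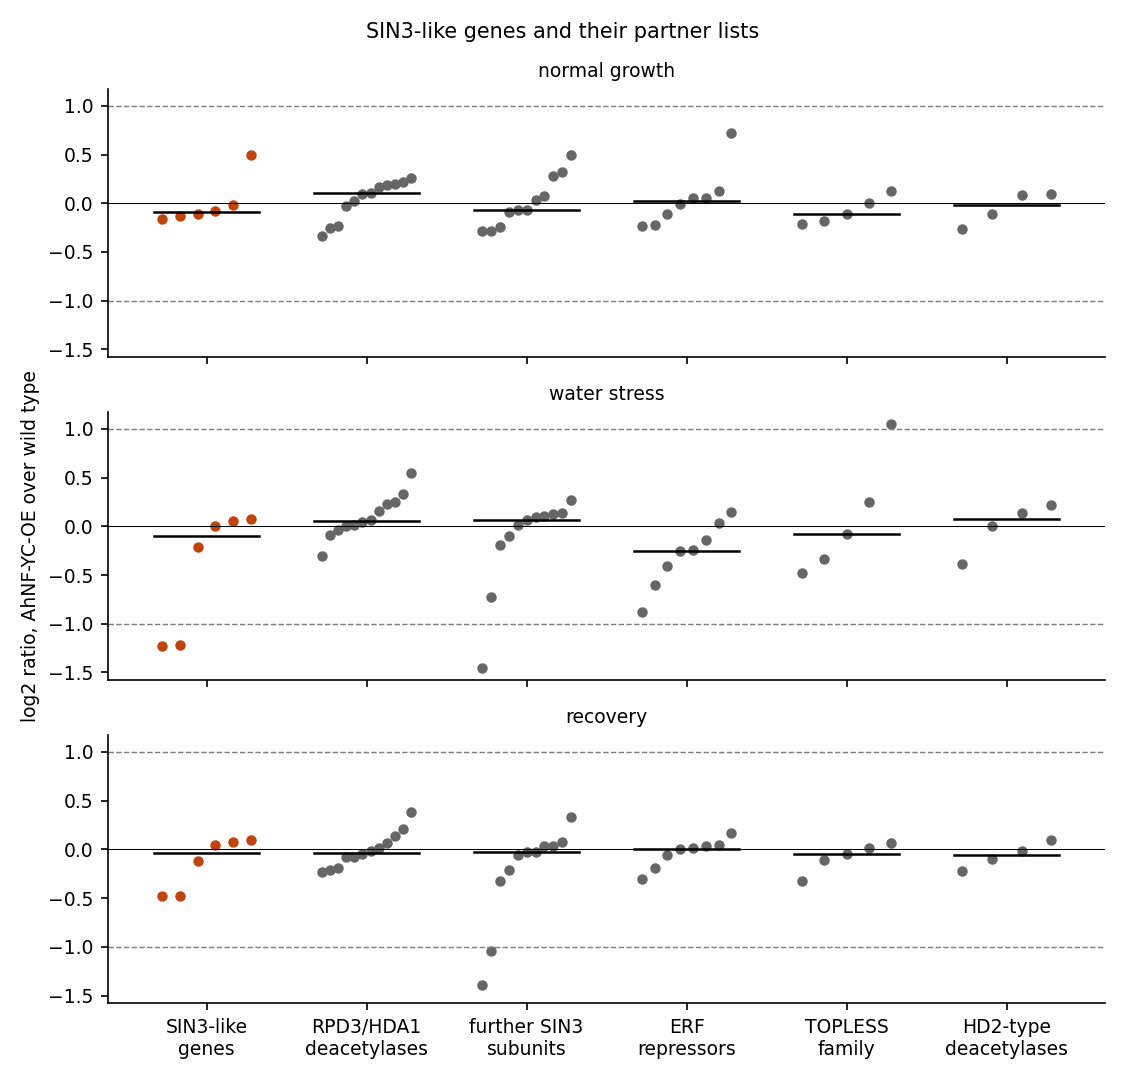
Genotype ratio (log2, AhNF-YC-OE over wild type) of the SIN3-like genes (orange) and 5 lists of partner genes (grey) on each array, points sorted within a list, with bars at list medians and dashed lines at 2-fold. Most partner genes lie near 0, and AT1G19330 is below SNL3 and SNL4 under water stress at −1.45.

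Likeness to SNL3 and SNL4 was measured as the distance between log2 genotype ratios over the 3 arrays, among 25998 loci above background on all of them. SNL4 lay 0.0843 from SNL3, and 1 locus was nearer to SNL3, AT1G55700 at 0.0778. Leaving out the SIN3-like genes, the others of the 5 nearest to SNL3 were AT1G14310, AT1G66110, AT1G28630 and MMZ1, a ubiquitin-conjugating enzyme variant, at distances up to 0.143. Nearest to SNL4 was AT1G66110, at 0.0457, with ratios of −0.03, −1.24 and −0.47. SNL3 came next, and among loci outside the family AT1G53645, AT1G35170, AT1G54230 and AT1G14310 followed it, up to 0.142. These are 8 different loci, and all 8 are on chromosome 1, as are 66 of the 87 genes at least 2-fold lower under water stress. Chromosome goes with place on the slide, and the part of each was not tested. Since water stress chose SNL3 and SNL4, likeness to them rests in large part on that array. Distances were taken with loess over the whole array only. In recovery print-tip loess gave −0.26 for SNL3 and −0.51 for SNL4, and the authors' deposited table −0.34 and −0.81, so their closeness depends on the processing.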

How the data were processed

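Per the file headers, the deposited scanner values are mean pixel intensity per spot, local background mean and background SD, for 30000 spots in 48 blocks. The authors also deposited normalized intensity values per channel and their log2 genotype ratio, AhNF-YC-OE over wild type, by a method not given in the sources used here. At 6 decimals, at least 99.96% of these ratios recur in the deposited series table, whose log2 medians are −0.0066, 0.0071 and 0.0040, which settles its direction. Its scaling and centring stay unknown.

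With limma 3.58.1 in R 4.3.3, normexp (offset 50) corrected the background and loess the ratios of each array, giving no weight to controls and empty spots. Spots of a transcript were averaged, and a locus was represented by its brightest transcript. Genes counted when 1 channel exceeded background mean plus 2 SD. Of empty spots, 92.0%, 92.5% and 86.7% also passed under normal growth, water stress and recovery. Single channels used Aquantile. Calls are log2 sizes of at least 1. Tables used Python 3.11.15, numpy 2.4.6 and pandas 2.3.3. The normalization was tested on simulated data with a dye bias that varied with brightness. No effect of slide position on the ratio was simulated, so that test does not cover it.

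Per the file headers, locus codes come from TAIR release 7 with TIGR release 5. The RefSeq table of TAIR10.1 gave names, with 25818 of 26017 loci matched. The members and lists were chosen with earlier results of these data known. Named genes were the 6 members, partners 2-fold apart on any array, 9 partners fixed whatever their value, and the 5 loci nearest to SNL3 and to SNL4. A search of the annotation for the words paired amphipathic helix found 0 loci. It missed the 6 members too, so it cannot show whether the family has further loci. Precision is limited by having 1 array per condition. Alternatives were median centring, print-tip loess, plain subtraction, no background correction, offset 10, the median of surrounding spots, the deposited values, brighter spots, the mean over probes and other single-channel scalings.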

Additional observations from a re-analysis of the deposited data

Results flagged for a closer look

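The genotype ratio of SNL2 and of SNL6 had 1 sign under normal growth and the other on both later arrays. The contrast turned with the processing: under normal growth SNL2 was above 0 in 3 of 7 other settings, and SNL6 was 0.08 with median centring. For SNL2 water stress minus normal growth was 0.0749 and recovery minus normal growth 0.0712, and with median centring they were −0.52 and −0.25. For SNL6 these differences were 0.19 and 0.21. With 1 array per condition the difference was not tested, and every ratio involved lies within 0.11 of 0 on the log2 scale.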

How the results depend on the processing

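Of 174 values of single members under other settings, 170 kept their sign or stayed within 2-fold as before, and 4 fell short of 2-fold: SNL3 under water stress with print-tip loess (−0.79), against surrounding spots (−0.996) and against like spots near its row (−0.87), and SNL4 with print-tip loess (−0.99). The 170 include values that could not differ. Each member has 1 spot, so the mean over probes and the limit to brighter spots repeat its main value. The number of members 2-fold apart under water stress was 2, and became 0 with print-tip loess, 1 against surrounding spots and 1 against like spots near the row, the last chosen after seeing the data. For water stress minus normal growth it was 2, and became 0 with print-tip loess, 1 against surrounding spots, 1 in the authors' values and 0 among spots brighter than 95% of empty spots, since fewer spots then remain. For recovery minus water stress it was 0, and became 2 with median centring and 1 with plain subtraction. Within genotypes, recovery over normal growth in wild type had 1 member, 3 with median scaling and 2 with quantile scaling, and recovery over water stress in AhNF-YC-OE had 1, and 2 with median scaling. Partners 2-fold apart under water stress numbered 2, and became 8 with median centring, 4 with plain subtraction, 1 against surrounding spots and 1 with the mean over probes. Other causes were not tested. No paired analysis was possible because each condition has 1 array. The AhNF-YC-OE signal of SNL3 and SNL4 under water stress was close to local background.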
